A study of Danio rerio with 4 samples.

Results

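The embryonic globin genes are the genes for the alpha and beta chains of the haemoglobin that the first red cells of a zebrafish embryo carry. They were taken here as the probe sets whose only gene in the platform annotation is 1 of 6 named genes, the alpha genes hbae1.1, hbae3 and hbae5 and the beta genes hbbe1.1, hbbe2 and hbbe3. That rule found 4 of the 15617 probe sets on the array, for 3 of the 8793 genes named by a single symbol: 2 probe sets for hbae3, 1 for hbbe2 and 1 for hbbe3. The genes hbae1.1 and hbbe1.1 lie only on 3 probe sets that the annotation also gives to sister copies, which are described apart, and hbae5 had no probe set under its name and is not analysed here. Total RNA of whole embryos at 36 hours post fertilisation (hpf) was measured on an Affymetrix zebrafish array. The 2 control samples were set against 2 samples from embryos that grew in 1% glucose in E3, the usual embryo medium, from 12 to 36 hpf. All embryos were kept at 28C, the labels name no strain or allele, and they do not say if replicates are separate clutches. The p-values thus measure only the spread between these samples, shared in part between probe sets.

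Haemoglobin is a tetramer of alpha and beta chains, each holding a haem group, so red cells make both chains together. In zebrafish, the first (primitive) red cells arise in the intermediate cell mass and circulate through the early embryo, and their embryonic globins are later replaced by larval and adult ones. Alpha and beta genes lie side by side in the same clusters in fish, unlike in mammals. In the RefSeq gene table of assembly GRCz12tu, hbbe3 and hbbe2 are neighbours within a cluster of 4 globin genes that runs hbae4, hbbe3, hbbe2, hbae5. The gene hbae3 closes another cluster of 12 globin genes, in which hbbe1.1, hbbe1.2 and hbbe1.3 alternate with hbae1.1, hbae1.2 and hbae1.3 beside the adult genes.

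The arrays were alike in scale, with median intensities of the non-control probe sets between 172.1 and 176.4. The 17 tag probe sets, made to match no fish transcript, reached at most 117.7, and 58.4% to 59.3% of probe sets lay above that level. All measured markers of skeletal muscle, neurons, heart and epidermis, 4 of 5 of myeloid cells and 2 of 3 of endothelium were above it on every array. As a check of RNA integrity, the 3' over 5' signal ratio spanned 2.14 to 2.49 for the actin controls and 1.45 to 1.78 for the Gapdh ones, and the groups overlapped in both. The housekeeping genes actb1 and eef1a1l1, whose brightness is near that of hbae3, differed by 0.0121 and 0.0328 on the log2 scale between glucose and control, and neither passed (limma with an intensity trend, adjusted p = 0.976 and 0.932). Another, rpl13a, differed by 0.0963, with both glucose arrays above both controls, and did not pass either (adjusted p = 0.737).

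Every single-gene embryonic globin probe set read higher on both glucose arrays than on both control arrays. Over all tested probe sets, 20.7% showed that order. The 2 beta genes rose at a Benjamini-Hochberg adjusted p under 0.10, hbbe2 by 1.63-fold and hbbe3 by 1.27-fold, while the alpha gene hbae3 lay 0.24 and 0.26 log2 units higher on its probe sets and did not pass. Thus 2 of the 4 probe sets passed upward, against 1.29% of all 13628 tested (176 higher and 97 lower, 2.00% in either direction). The median log2 difference of the 4 was 0.31, against 0.00148 over all tested probe sets. The genes were picked for description with earlier results of these data known, so these counts describe them and are no independent test. As the RNA came from whole embryos, more red cells and more globin RNA per cell cannot be told apart.

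**Figure D1:**
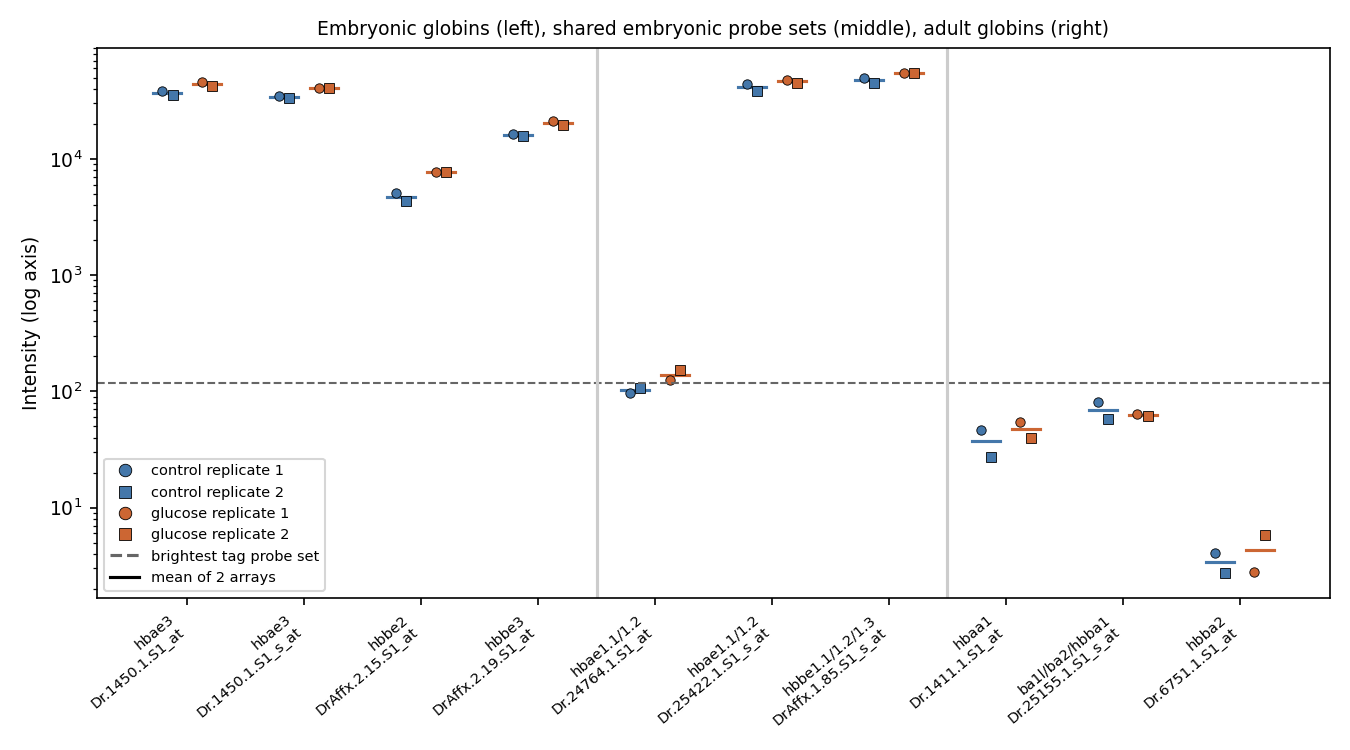
Intensity on a log axis of each embryonic globin probe set, of the probe sets shared with sister copies and of the adult globin probe sets, on 2 control and 2 glucose arrays (points) with the mean of 2 arrays (bars); the dashed line is the brightest tag probe set at 117.7. The embryonic probe sets lie far above that line except 1 shared alpha probe set near it, and all adult probe sets lie below the line.

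The beta chain gene hbbe2 had the largest difference of the 4. Its intensity was 5119 and 4314 in control replicates 1 and 2, and 7639 and 7686 in glucose replicates 1 and 2. The groups did not overlap, the control samples had an SD of 0.17 log2 units, and the glucose samples were almost equal. The mean went from 4717 ± 569 (SD, n = 2) to 7663 ± 33.0, a log2 difference of 0.71 (standard error 0.11) and a 95% interval from 0.48 to 0.93 (limma with trend, adjusted p = 0.0025). Only 4.20% of all tested probe sets had a larger upward difference. Without the trend, which lets the variance follow brightness, the adjusted p was 0.508 and the unadjusted p 0.0114. Leaving out control replicate 2 lowered the difference to 0.58 and leaving out control replicate 1 raised it to 0.83. It passed in each of the 4 fits that left out 1 array. In such a fit the spread comes only from the group that kept both arrays, so passing there is no further support.

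The other beta gene of that cluster, hbbe3, read 16261 and 15799 in the controls and 21336 and 19507 in glucose. Both glucose samples lay above both controls, and the controls were the closer pair. The mean went from 16030.0 ± 326 (SD, n = 2) to 20422 ± 1294, a log2 difference of 0.35 (standard error 0.0917) and an interval from 0.16 to 0.54 (limma with trend, adjusted p = 0.0797). This call was near the threshold. It was lost without the trend (adjusted p = 0.619), without glucose replicate 1 (log2 difference 0.28, adjusted p = 0.589), without glucose replicate 2 (0.41, adjusted p = 0.271), with no filter on dim probe sets (adjusted p = 0.236) and with median centring (adjusted p = 0.151).

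For the alpha chain gene hbae3, the array carries 2 probe sets. The first, with the plain suffix _at, read 38543 and 35559 in the controls and 45442 and 42001 in glucose. The second, with the suffix _s_at, read 34761 and 33039 in the controls and 41025 and 40261 in glucose. Affymetrix gave the suffix _s_at to probe sets whose probes match more than 1 transcript, so the second may also bind related copies. Binding of sister copies was not checked by sequence for any globin probe set, those of hbbe2 and hbbe3 and the plain one of hbae3 included, so each value belongs to the gene the annotation names only as far as its probes are specific. Both probe sets showed the same order, with control replicate 2 lowest, control replicate 1 next, and the glucose samples on top. Their log2 differences were 0.24 (standard error 0.0866, interval from 0.0565 to 0.42) and 0.26 (0.0839, from 0.0856 to 0.44), and neither passed (limma with trend, adjusted p = 0.268 and 0.186). With quantile normalization both passed (limma with trend, adjusted p = 0.0703 and 0.0624). Leaving out 1 array gave log2 differences from 0.18 to 0.30 for the first and from 0.23 to 0.30 for the second. Both also passed without control replicate 1, and the second without control replicate 2. In those fits the spread comes from the glucose pair alone. The 2 probe sets kept their ratio: the log2 ratio of the second to the first was -0.13 ± 0.0304 (SD, n = 2) in controls and -0.10 ± 0.0611 in glucose, with overlapping groups.

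**Figure D2:**
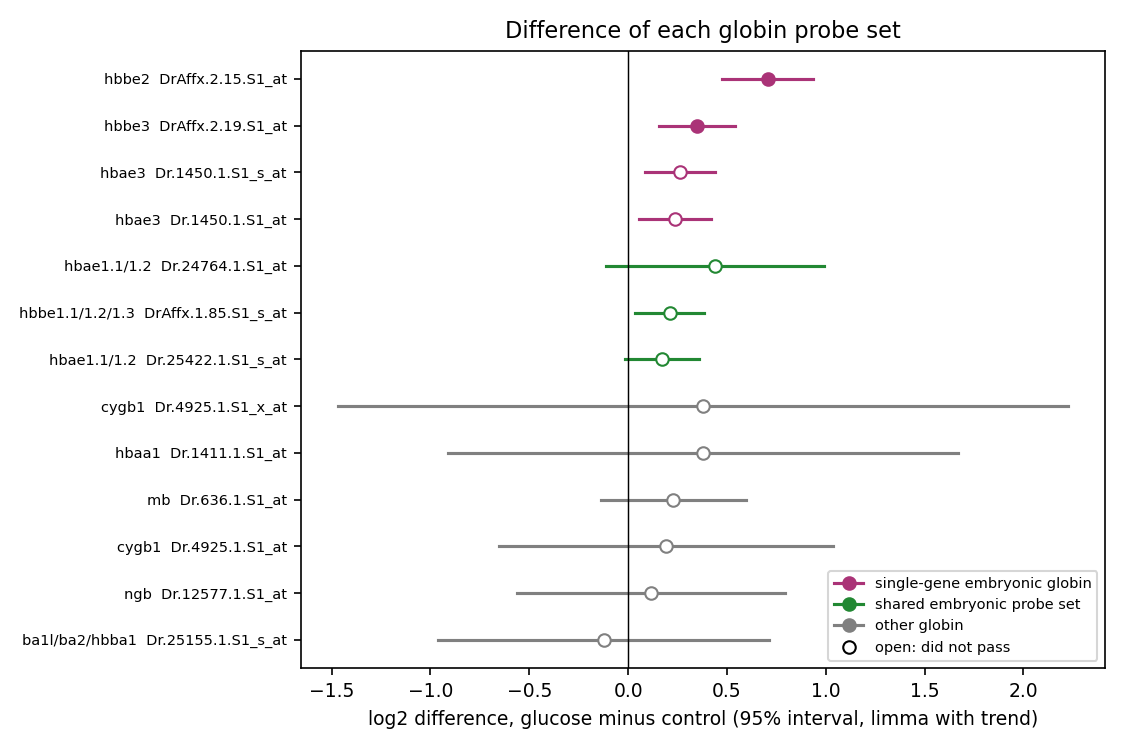
Log2 difference between glucose and control (point) with its 95% interval (line, limma with trend) for each tested globin probe set; filled points passed at adjusted p under 0.10. Only hbbe2 (0.71) and hbbe3 (0.35) are filled, and the intervals of the dim adult and non-blood globins are wide.

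The sister copies were seen only through shared probe sets, where the copy that gave the signal cannot be named. The probe set given to hbbe1.1, hbbe1.2 and hbbe1.3 read 49092 and 45273 in the controls and 54233 and 54950.0 in glucose. Glucose lay above control on all arrays, with a log2 difference of 0.21 and an interval from 0.0372 to 0.39, which did not pass (limma with trend, adjusted p = 0.319). It passed in 1 fit, without control replicate 1 (0.27, adjusted p = 0.00827).

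The copies hbae1.1 and hbae1.2 share 2 probe sets that differ widely in brightness. The bright one, of the _s_at kind, read 44219 and 38339 in the controls and 47708 and 45127 in glucose, a log2 difference of 0.17 with an interval from -0.0163 to 0.36 (limma with trend, adjusted p = 0.495). Control replicate 1 was close to glucose replicate 2. The difference fell to 0.0694 when control replicate 2 was left out and reached 0.28 when control replicate 1 was. Only the fit without control replicate 1 passed for this probe set. The dim one, named for the same pair of genes, read 96.3 and 107.8 in the controls and 125.1 and 152.7 in glucose. It lay below the tag level on both control arrays and above it on both glucose arrays, and its log2 difference of 0.44 had an interval from -0.11 to 0.99 (adjusted p = 0.561). Probe sets named for the same genes thus lay at opposite ends of the measurable range.

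Brightness placed the embryonic globins among the strongest signals of the embryo. Out of 15502 non-control probe sets, where rank 1 is the brightest, the shared hbbe1 probe set ranked between 5 and 10 on the 4 arrays and the bright hbae1 probe set between 8 and 17. The hbae3 probe sets ranked between 11 and 39 and between 20 and 59, hbbe3 between 142 and 179, and hbbe2 between 307 and 523. These ranks describe the probe sets, since probes differ in how strongly they bind, and they do not rank the transcripts. The highest intensity of any non-control probe set was between 59672 and 74021 on each array.

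Adult globins gave no signal above the tag level on any array. The adult alpha gene hbaa1 stood at 46.9 and 27.3 in the control samples and at 54.5 and 39.7 in the glucose samples, the probe set of the adult beta genes ba1l, ba2 and hbba1 read 81.1, 57.3, 64.1 and 61.1 in the same order, and the adult beta gene hbba2 read between 2.75 and 5.81. The groups overlapped for all 3, so no difference was detectable in adult globins. Of the globins outside blood, myoglobin (mb), the oxygen store of muscle, was the only one above the tag level, at 349.6 and 303.2 in controls and 363.9 and 400.4 in glucose (log2 difference 0.23, limma with trend, adjusted p = 0.672). Neuroglobin (ngb) and both probe sets of cytoglobin (cygb1) stayed below the tag level on all 4 arrays, with differences between 0.12 and 0.38 that did not pass (adjusted p between 0.908 and 0.939).

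**Figure D3:**
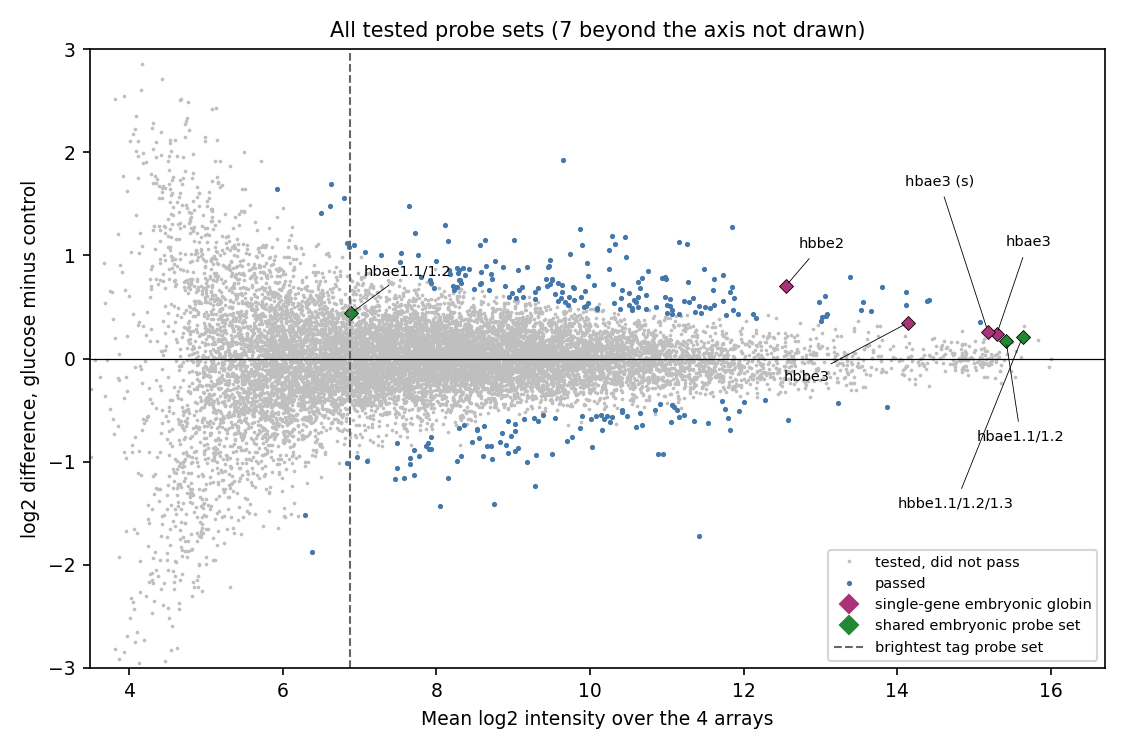
Log2 difference between glucose and control against mean log2 intensity over 4 arrays, for all tested probe sets (grey; blue where adjusted p was under 0.10) with the embryonic globins as diamonds; 7 probe sets beyond the axis are not drawn. The cloud narrows to the right, and the bright globin probe sets lie on the upper side of it, from 0.71 for hbbe2 down to 0.17 for the bright hbae1 probe set.

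Among the bright globin probe sets, the difference was smaller the brighter the probe set, apart from the brightest. It was 0.71 for hbbe2, 0.35 for hbbe3, 0.26 and 0.24 for hbae3, 0.17 for the bright hbae1 probe set and 0.21 for the hbbe1 probe set, in order of rising mean intensity. All tested probe sets also differed less at high brightness: 90% of those with a mean between 1000 and 10000 lay between -0.33 and 0.39, and 90% of the 254 with a mean above 10000 lay between -0.20 and 0.32. Of those 254, 11 passed upward (4.33%), hbbe3 among them, 12 had a difference at least as large as hbbe3 and 22 at least as large as the lower hbae3 probe set. The part of brightness in the order of the globin differences was not tested.

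Alpha and beta chains were compared within each array, as the log2 ratio of probe sets, which shows unequal change and not which chain changed. The ratio of hbae3 to the mean of hbbe2 and hbbe3 was 2.00 and 2.05 in the controls and 1.76 and 1.75 in glucose. The groups did not overlap, and the ratio was lower by 0.28 in glucose (log2 difference -0.28, with a pooled SD between replicates of 0.0252, n = 2 per group). No p is given for this ratio, as it is a score over chosen genes, and an exact two-sided permutation test of 2 arrays against 2 could not go below 0.333. Leaving out each array in turn gave values from -0.30 to -0.25.

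Most of that shift lay in hbbe2. The log2 ratio of hbbe2 to hbae3 was -2.91 ± 0.11 (SD, n = 2) on the control arrays and -2.46 ± 0.0560 on the glucose arrays, which is 0.45 apart. The ratio of hbbe3 to hbae3 differed by 0.0975, from -1.14 ± 0.0377 to -1.05 ± 0.0417, also without overlap between the groups. The 2 beta genes differed from each other as well, although they are neighbours: the ratio of hbbe2 to hbbe3 was -1.67 and -1.87 in controls and -1.48 and -1.34 in glucose, a difference of 0.36. The gap between the chains was thus no larger than the gap within the beta chain.

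Within the larger cluster an alpha and a beta signal could be compared through the shared probe sets. The log2 ratio of the bright hbae1 probe set to the hbbe1 probe set was -0.20 ± 0.0629 (SD, n = 2) on the control arrays and -0.23 ± 0.0701 on the glucose arrays, a difference of -0.0392 with overlapping groups. The ratio of hbae3 to the hbbe1 probe set differed by 0.0389, again with overlap. When the bright shared probe sets were added, a choice made after seeing the data, the alpha to beta difference was -0.21, and -0.14 with the dim one too. The shared hbbe1 probe set also set beta against beta: the ratio of hbbe2 to it differed by 0.49, from -3.33 ± 0.0919 (SD, n = 2) to -2.83 ± 0.00719, and that of hbbe3 to it by 0.14, both without overlap. The beta genes of the smaller cluster were thus shifted against hbbe1, a beta signal of the larger cluster, by about as much as against the alpha gene hbae3. All probe sets read in the smaller cluster are dimmer than the bright ones of the larger, so cluster and brightness cannot be told apart in these shifts, and no alpha gene of the smaller cluster was measured.

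**Figure D4:**
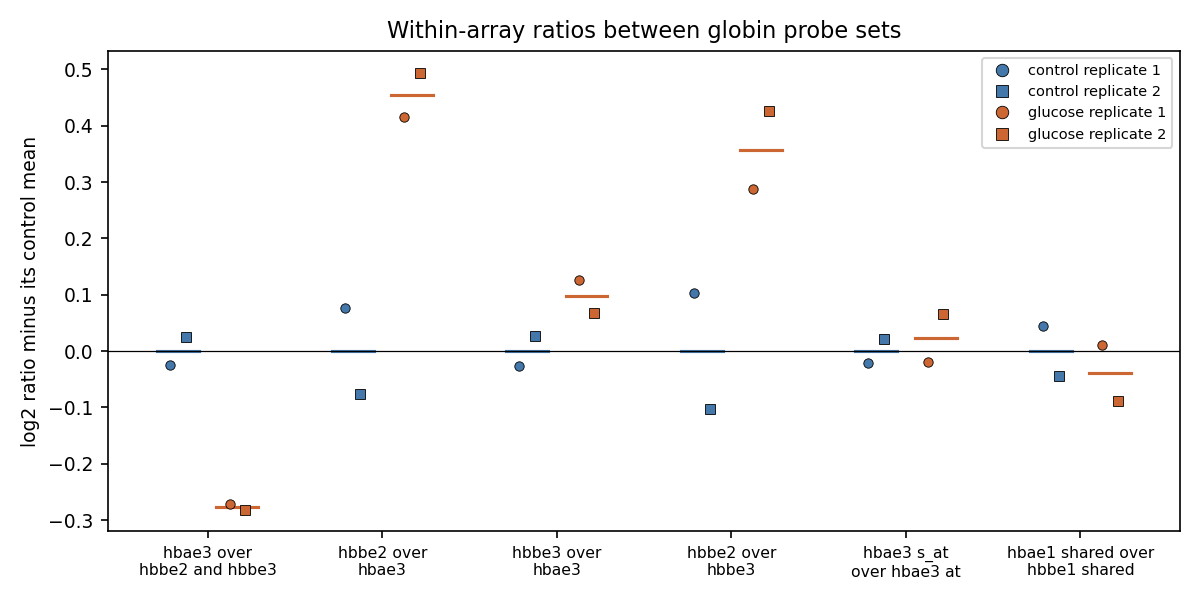
Log2 ratio between globin probe sets on each array, minus the mean of the control arrays for that ratio; points are arrays and bars are means of 2. Of the ratios drawn, those with hbbe2 as numerator differ most between the groups (0.45 over hbae3 and 0.36 over hbbe3), while the 2 hbae3 probe sets and the shared hbae1 and hbbe1 probe sets keep their ratio within the spread of replicates.

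Other red cell genes were read from a list of 70, of which 36 are on the array under a single symbol and 34 were tested, each on its brightest probe set. In that list 26 were higher and 8 lower in glucose, where 51.0% of all genes were higher. Leaving out 1 array turned the sign of gpx1a, hdr, fech, uros, glrx5, hebp2 and tal1 among the higher. It also turned that of ca2, klf1, ldb1a, lmo2 and stat5a among the lower. The genes klf17, hdr, fech, uros, nfe2, tal1, klf1, lmo2 and slc25a38b were not above the tag level on every array. For all these genes the direction is not settled. Of the 34, 5 rose and none fell (limma with trend), against 1.52% of all 8165 genes that rose and 0.649% that fell. At an unadjusted p under 0.05 in the same fit, 9 were higher and 0 lower. Over all 8165 genes these counts were 560 and 421. The median log2 difference was 0.21, against 0.00600 over all genes. The list was chosen with earlier results of these data known.

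Membrane and skeleton genes held 3 of the 5 rises among 5 tested. The gene epb41b, for the protein that ties the spectrin network to the membrane, rose 2.14-fold, from 291.3 and 233.1 to 616.4 and 505.4 (limma with trend, adjusted p = 0.00352). The gene sptb, for the beta chain of spectrin itself, rose by 0.84 on the log2 scale (adjusted p = 0.0291), and slc4a1a, for the anion exchanger that carries bicarbonate across the red cell membrane, by 0.79 (adjusted p = 0.00406). These differences lay at or above that of hbbe2, and for all 3 genes the glucose samples lay above the controls. All 3 calls were lost in limma without the trend (adjusted p = 0.489 for epb41b, 0.537 for sptb and 0.520 for slc4a1a). Of the fits that left out 1 array, the one without glucose replicate 2 also lost the call for sptb, with a difference of 0.70. The difference of sptb was 0.64 without control replicate 1, in a fit that kept the call.

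In haem synthesis, the pathway that makes the group each globin chain holds, 6 of 7 genes were higher and 1 rose. Of the 6, fech and uros were not above the tag level on every array and turned sign when 1 array was left out. The gene that rose was alas2, for the first and rate-limiting enzyme of the pathway in red cells. It went from 701.1 and 682.9 in controls to 1119 and 1120.2 in glucose, a log2 difference of 0.69 (limma with trend, adjusted p = 0.0142), close to the 0.71 of hbbe2. The call was lost in limma without the trend (adjusted p = 0.494). Leaving out 1 array gave differences from 0.68 to 0.71, and the call did not hold in every such fit.

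In the group listed as cytosol 8 of 9 genes were higher. Of these 1 rose, the red cell carbonic anhydrase gene cahz, by 0.54 (limma with trend, adjusted p = 0.075). That group is not made of cytosolic proteins only, as it holds the Kruppel-like factor gene klf17, the zinc finger gene znfl2a and the receptor gene hdr. These were higher by 0.34, 0.56 and 0.54 and did not pass. The groups overlapped for hdr, at 101.6 and 216.9 in controls and 204.1 and 229.8 in glucose. Its log2 difference was -0.00251 without control replicate 1. The gene klf17 lay below the tag level on both control arrays, at 116.3 and 104.4. The call for cahz was lost in limma without the trend (adjusted p = 0.574) and with no filter (adjusted p = 0.108). Of the fits that left out 1 array, only the one lacking control replicate 2 kept that call, and all the others lost it. In the fit that kept it the spread comes from the glucose pair alone. The log2 difference of cahz fell to 0.38 without control replicate 1 and rose to 0.70 without control replicate 2. Of 5 iron and haem transport genes 3 were higher and none passed (limma with trend, 1 at an unadjusted p under 0.05). Among those 3, glrx5 was higher by only 0.00204. Both glrx5 and hebp2 turned sign when 1 array was left out. Of the 8 genes listed as regulators, klf17 and znfl2a not among them, 4 were higher and none passed (limma with trend, 1 at an unadjusted p under 0.05). The regulator gata1a, which drives globin and other red cell genes, was at 124.6 and 120.6 in the control and at 209.5 and 166.6 in the glucose samples (1.52-fold, with an interval from 1.09 to 2.14, limma with trend, adjusted p = 0.301). The regulators klf1, lmo2, nfe2 and tal1 never reached the tag level on these arrays, and any difference there was not detectable. Of these, nfe2 and tal1 count among the regulators that were higher, so that count says little about the group.

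**Figure D5:**
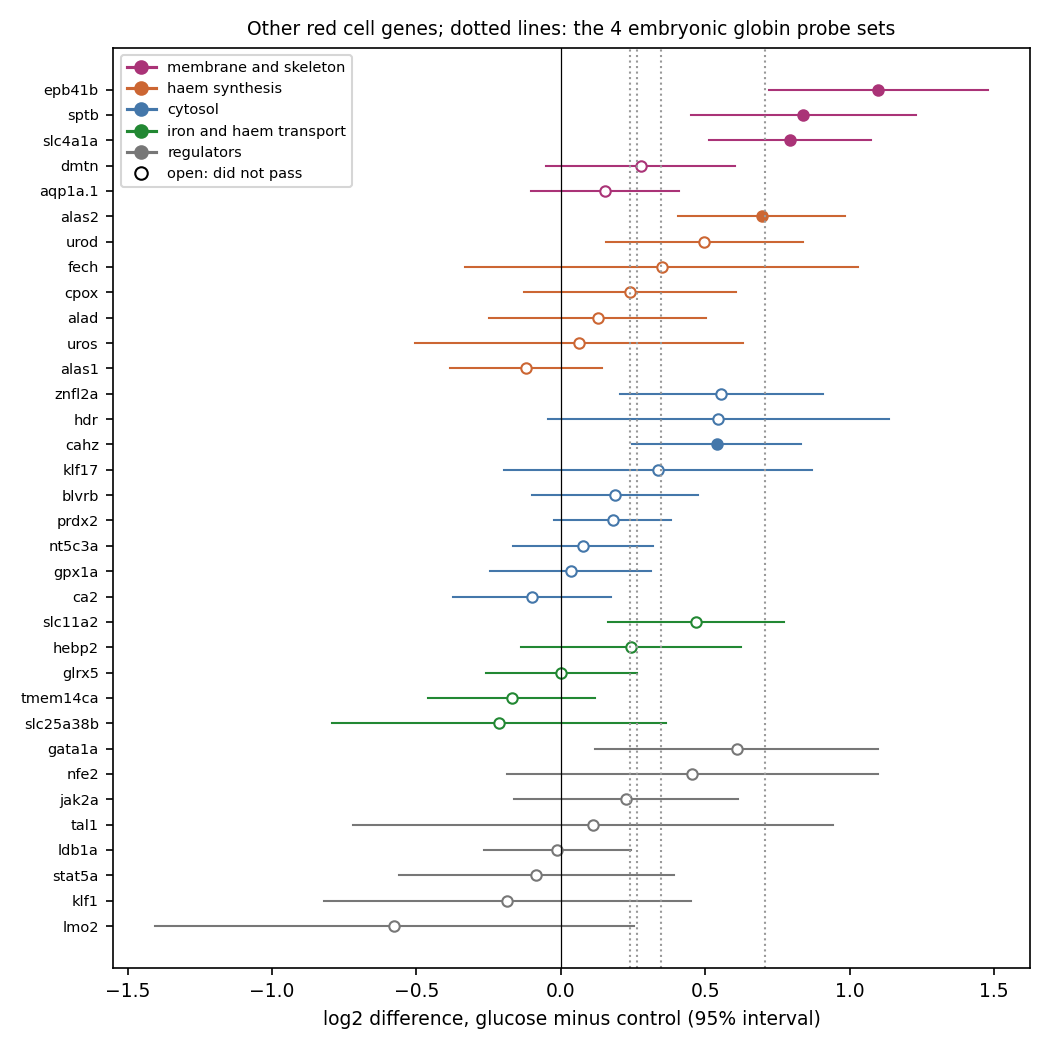
Log2 difference between glucose and control with its 95% interval for the 34 tested genes of the red cell list, coloured by role, with filled points where adjusted p was under 0.10; the dotted lines mark the 4 single-gene globin probe sets. Filled points are epb41b, sptb, slc4a1a, alas2 and cahz, and 26 of the 34 points lie right of 0.

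The 5 genes whose profile over the 4 arrays lay nearest to the mean globin profile were sought among the named, non-globin probe sets brighter than the tag level. Likeness was the Euclidean distance between log2 values centred on their own mean. The nearest was cnot4b (distance 0.0185). Next came dla, for a Notch ligand (0.0197), and sardh, for an enzyme of sarcosine breakdown (0.0329). Then followed myl7, for a heart myosin light chain (0.0351), and gatm, for an enzyme of creatine synthesis (0.0416). The member genes themselves lay at 0.12 (hbbe3), 0.19 (hbae3) and 0.29 (hbbe2) from their own mean, and the median candidate at 0.52. With 4 arrays such a likeness is a description of these samples. As the profile that picked the 5 genes is itself higher in glucose, no test of glucose against control is given for them.

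Markers of other cells were read beside the globins. The summed intensity of the 8 measured primitive red cell markers, globins included, was 59629 to 63339 in controls and 75306 to 80429 in glucose. Most of this sum came from the globins, which in control replicate 1 read 38543 (hbae3), 16261 (hbbe3) and 5119 (hbbe2). It thus largely repeats the globin values and is no separate reading of red cells. The sum of 5 myeloid markers was 4721 to 4891 in controls and 5569 to 5594 in glucose, and that of 3 heart markers 1881 to 2093 and 2578 to 2602, so both sums also lay higher without overlap, with 3 of the 5 myeloid and 3 of the 3 heart markers higher. Over all tested probe sets 20.7% lay higher without overlap, and 51.0% of all genes were higher. The 20.7% is a share of single probe sets and not of sums. The heart marker myl7, at 1198 and 1069 in controls and 1544 and 1510 in glucose, is also among the genes of nearest profile above. The sum of 5 neuron markers was lower without overlap, at 11924 to 12171 in controls and 10631 to 11287 in glucose. Of those 5 markers 0 were higher. The sums for skeletal muscle, epidermis and endothelium overlapped, with 0 of 4, 1 of 3 and 1 of 3 markers higher. Of the 23 tested markers of these other cells none passed (limma with trend). At an unadjusted p under 0.05 in that fit there were 4, against 1564 of all 13628 tested probe sets. The part of a shift in cell make-up in the globin differences was not tested.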

How the data were processed

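The authors deposited a linear intensity for each probe set of each array. GCRMA, without a version, is the method in the submitters' processing notes. The values are noisy at the low end, and the method that gave them is not settled. Groups and replicate numbers came from the sample titles. Of 15617 probe sets, 115 controls were left out, and 10795 of the rest carry 1 gene. Symbols were updated through the RefSeq table of GRCz12tu, used for names and neighbours only. The log2 of each intensity was taken, probe sets with at least 5 on at least 2 arrays were kept (13628), and the groups were compared in limma 3.58.1 with an intensity trend (R 4.3.3), on 2 residual degrees of freedom, with Benjamini-Hochberg adjustment over all of them and a threshold of 0.10. Precision is limited by the number of arrays. The trend fit, the members and the lists were chosen with earlier results of these data known, among them that the fit without trend calls nothing. Named were all globin probe sets, list genes past the threshold with gata1a, klf1 and alas2, 5 genes of nearest profile (names with a colon passed over), and housekeeping genes. Genes in the cytosol group that are not cytosolic were named too. So were list genes not above the tag level on every array and those whose sign turned when 1 array was left out. Alternatives covered the trend, filters, scaling, thresholds, single arrays and the replicate number. The code was tested on simulated arrays. Summaries and plots were made in Python 3.11.15 (pandas 2.3.3, matplotlib 3.10.9).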

Additional observations from a re-analysis of the deposited data

How the results depend on the processing

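The 273 calls over all probe sets became 0 without the trend (limma, 1152 at an unadjusted p under 0.05), 174 with no filter, 161 at a threshold of 0.05 and 586 when a 1.5-fold difference and an unadjusted p under 0.05 were asked, and ranged from 127 to 949 when 1 array was left out. The 2 globin calls became 0 without the trend (limma, 1 probe set, hbbe2, at an unadjusted p under 0.05). They became 1 with no filter, with median centring and under both other thresholds, and 4 with quantile normalization. The 5 red cell calls became 0 without the trend (8 at an unadjusted p under 0.05) and ranged from 2 to 7 when 1 array was left out. The alpha to beta difference of -0.28 was -0.21 and -0.14 with shared probe sets. All 4 globin probe sets stayed positive in all 12 refits run on each, hbbe2 between 0.58 and 0.83. For most refits that sign was fixed in advance. Every glucose array lay above every control for them, so leaving out 1 array could not turn it. Refits that changed the trend, the filter or the block kept the same difference. Only quantile normalization and median centring could have turned a sign. The replicate number as a block gave 301 calls over all probe sets, and 2 globin and 5 red cell calls. Same-numbered samples did not deviate together (r = -0.0228 across tested probe sets). With 2 samples per group this cannot settle if the numbers mark shared clutches. With single arrays left out, signs turned for hbaa1 (-0.0108 to 0.77), the probe set of ba1l, ba2 and hbba1 (-0.37 to 0.13), the cygb1 probe sets (-0.0856 to 0.47 and -1.34 to 2.10), klf1 (-0.47 to 0.10), eef1a1l1 (-0.0036 to 0.0691) and actb1 (-0.0117 to 0.0358, and -0.00604 with quantile normalization). Signs also turned for the red cell list genes hdr (-0.00251 to 1.09), tal1 (-0.0189 to 0.24) and lmo2 (-1.19 to 0.0408). The same held for ca2, fech, uros, hebp2, glrx5, gpx1a, ldb1a and stat5a of that list. The cause of these changes was not tested. Below the tag level no difference could be measured reliably.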
